A study of Mus musculus with 2669 samples.

Results

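Among neurons dissected from the caudal ganglionic eminence (CGE) of mouse embryos, 51 cells carried RNA of Lhx6, a transcription factor gene best known as a marker of interneurons from the neighbouring medial ganglionic eminence (MGE). These 51 Lhx6-positive neurons were chosen by a rule on measured values. A CGE cell with at least 1000 detected genes and 50000 counts had to hold Tubb3 and Dcx, genes of young neurons, at 50 CPM or more each. CPM is a gene's count scaled to the same total in every cell. It also had to hold Top2a and Mki67, genes of dividing cells, under 10 CPM each, and Lhx6 at 20 CPM or more. The table held 2669 cells, of which 854 CGE cells passed the cell filter and 156 of those were neurons by the rule without Lhx6. Cells under 5 CPM of Lhx6, 97 in number, served as Lhx6-negative CGE neurons, and 8 neurons between the thresholds entered neither group.

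The cells came from CD1 mouse embryos at embryonic day E12.5 or E14.5, and the labels name no treatment or transgene. Single cells of the CGE and of the dorsal (dMGE) and ventral (vMGE) parts of the MGE were captured on microfluidic chips, amplified as full-length cDNA from polyadenylated RNA, and sequenced. A chip held cells of 1 tissue and 1 age and is the replicate here, because the labels name no animals. The p-values between tissues and ages thus reflect the spread between chips. Those within the CGE reflect how the difference between Lhx6-positive and Lhx6-negative neurons varied over chips. Both spreads include which cells were caught, and some of each may be technical.

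The ganglionic eminences are the ventral forebrain swellings in which the GABA-releasing interneurons of the cortex are born. In the MGE the transcription factor Nkx2-1 specifies progenitors and switches on Lhx6, which newborn interneurons keep while they migrate to the cortex and become Sst or Pvalb neurons. Neurons that keep Nkx2-1 and Lhx8 largely stay in the ventral forebrain, among them cholinergic and striatal cells. CGE interneurons are known for Nr2f2, Prox1 and Sp8 and for later Vip, Reln or Htr3a, and the lateral eminence next to them gives rise to striatal neurons with Meis2, Foxp1 and Isl1.

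Lhx6 in the 51 cells ran from 30.3 to 4440 CPM with a median of 571 CPM, and 44 of them held 100 CPM or more. The lowest members held 30.3, 41.1 and 41.9 CPM, and the highest CGE neurons left out held 19.6, 18.1 and 14.1 CPM. Of the 97 Lhx6-negative neurons, 68 had no Lhx6 count. These values made the choice and are given as a description.

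The Lhx6-positive cells were GABAergic neurons by genes that the rule did not use. Any of the GABAergic transcription factor genes Dlx1, Dlx2 and Dlx5 stood at 20 CPM or more in 50 of the 51 cells, and Gad1 or Gad2, the enzymes that make GABA, in 46 of 51. No member held any of 11 pallial excitatory genes, such as Tbr1 and Slc17a7, at 20 CPM or more, and 0 of 51 cells allows a share of up to 5.88%. Here and below such a limit is 3 divided by the number of cells, an approximation that leaves out the spread between chips. On the chips compared below, 4 of 56 Lhx6-negative neurons held such a gene. Endothelial, microglial and pericyte genes at that level appeared in 1 member each, oligodendrocyte precursor genes in 3 and erythroid genes in 4. Genes of progenitors were common in both groups. At least 1 gene of the radial glia list was at that level in 45 of 51 members, of the neurogenic intermediate list in 46 and of the cycling list in 40, against 49, 45 and 50 of the 56 Lhx6-negative neurons. No doublets were called, so a cell with genes of several types may be more than 1 cell.

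Members were found on 8 of the 11 CGE chips, 18 at E12.5 and 33 at E14.5. At E12.5, 13 of 30 neurons on chip 182 were Lhx6-positive (43.3%, exact 95% interval 25.5 to 62.6), 4 of 11 on chip 175 and 0 of 21 on chip 187. On chip 187, 0 cells allows a share of up to 14.3%, and the exact 95% interval reaches 16.1%. At E14.5 they made up 8 of 13 neurons on chip 160, 4 of 11 on chip 161, 15 of 30 on chip 162 and 4 of 15 on chip 190-2. The ages overlapped, with chips 175 and 161 both at 36.4%. Over chips with at least 10 neurons the mean share was 43.6% ± 15.3 (SD, n = 4) at E14.5 and 26.6% ± 23.3 (SD, n = 3) at E12.5, a difference of 17.1 percentage points (exact two-sided permutation test, p = 0.343, smallest possible 0.0286). Without chip 187 the difference was 3.79 points. The remaining chips had 3, 4, 9 and 9 neurons and gave 0, 1, 0 and 2 members.

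**Figure D1:**
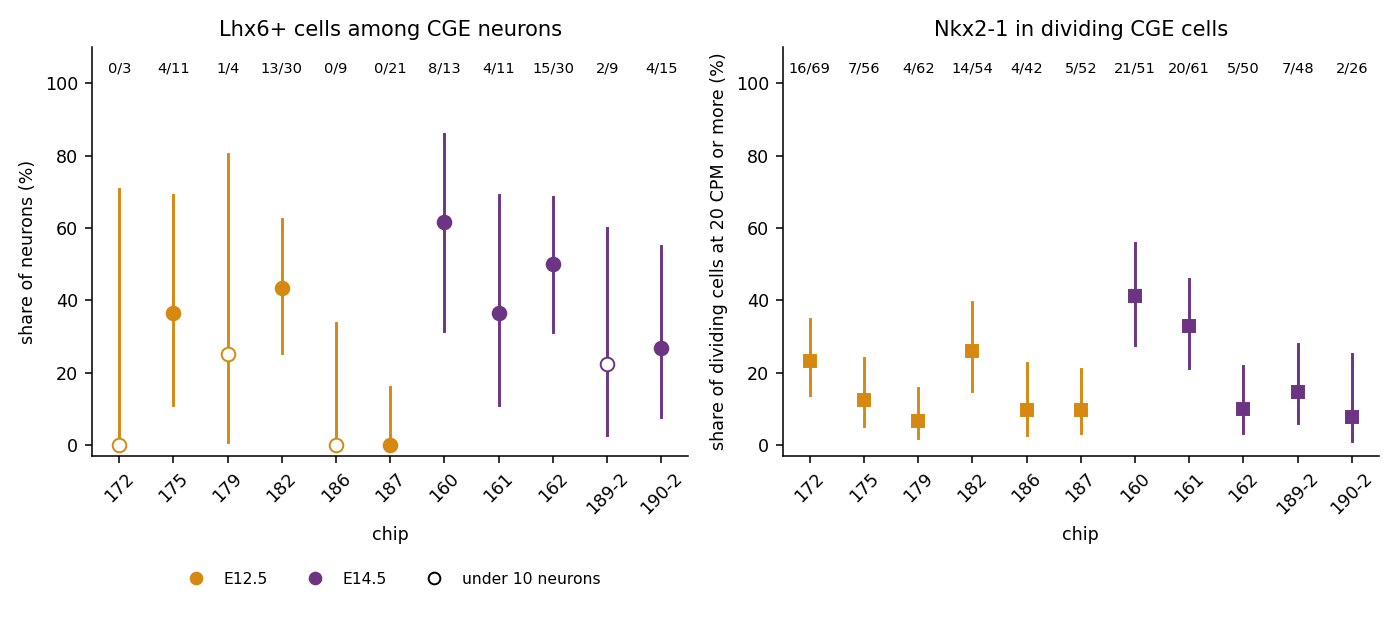
The left panel plots the share of Lhx6-positive cells among CGE neurons on each chip, with cell counts above and open points for chips with under 10 neurons; the right panel plots the share of dividing CGE cells with Nkx2-1 at 20 CPM or more. Bars are exact 95% binomial intervals, which cover counting error only; the left shares run from 0% on chip 187 to 61.5% on chip 160.

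Dividing cells of the same chips, defined here by Top2a or Mki67 at 10 CPM or more, were examined for the MGE progenitor gene Nkx2-1. It stood at 20 CPM or more in 50 of 335 dividing CGE cells at E12.5 (14.9%) and in 55 of 236 at E14.5 (23.3%), from 6.45% on chip 179 to 41.2% on chip 160. In MGE dissections the shares were 79.6% in dMGE and 87.5% in vMGE at E12.5, and 37.2% and 54.1% at E14.5. Lhx8, in contrast, was at that level in 0 of 571 dividing CGE cells pooled over 11 chips, which allows up to 0.525%. It was found in 79 of 334 dMGE and 199 of 384 vMGE dividing cells at E12.5. Whether MGE tissue was included in some CGE dissections was not tested.

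Comparisons between groups used chips with at least 3 cells in each group, with counts summed over the cells of a chip. Inside the CGE these were chips 175 and 182 at E12.5, with 17 members and 21 Lhx6-negative neurons, and chips 160, 161, 162 and 190-2 at E14.5, with 31 and 35. Their members had a median of 877220 counts and 3696 genes per cell against 942308 counts and 3497 genes in the Lhx6-negative neurons. At E14.5 the median gene number was 3668 against 3178, and mitochondrial reads made up 1.40% against 2.59% of counts. Chip 190-2 stood apart, with a median of 1606 genes in its 4 members and 1628 in its Lhx6-negative neurons, and chip 175 had 5.69% and 6.07% mitochondrial reads. The part of these differences in the results was not tested; shares of cells are also given after each cell was thinned to 200000 counts, and E14.5 results also without chip 190-2.

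At E14.5 Erbb4, Nxph1, Gria4, Ackr3, Maf, Npy and Mef2c, picked after their values were seen, were found in a larger share of the Lhx6-positive than of the Lhx6-negative CGE neurons. Satb1, a chromatin gene of MGE interneurons, was in 8 of 31 members and 8 of 35 Lhx6-negative neurons. Erbb4 is the neuregulin receptor that guides interneurons to the cortex. It stood at 20 CPM or more in 22 of 31 members (71.0%, exact 95% interval 52.0 to 85.8) and in 4 of 35 Lhx6-negative neurons (11.4%, 3.2 to 26.7). These intervals pool cells of several chips and leave out the spread between chips. By chip the members counted 6 of 8 on chip 160, 3 of 4 on chip 161, 12 of 15 on chip 162 and 1 of 4 on chip 190-2. The Lhx6-negative neurons counted 1 cell on each of these chips, of 5, 6, 13 and 11 cells. The lowest member share, 25% on chip 190-2, was 1 of 4 cells, and the highest Lhx6-negative share, 20% on chip 160, was 1 of 5. A single cell could change their order, and such separation was not counted over all tested genes. The summed levels overlapped, since the members of chip 190-2 held 7.10 CPM.

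Nxph1, a secreted ligand of neurexins, followed with 19 of 31 members (61.3%) against 2 of 35 (5.7%). The members' summed levels were 1146 CPM on chip 160, 516.6 on chip 161, 536 on chip 162 and 0.273 on chip 190-2, against 0.512, 345, 2.84 and 0.378 CPM in the Lhx6-negative sums. Chip 190-2 had no member with the gene. Gria4, an AMPA receptor subunit, also stood in 19 of 31 members against 2 of 35, and was 120.5, 460.2, 294 and 1057 CPM in the members of the same 4 chips. In the Lhx6-negative sums Gria4 was 0, 38.3, 1.72 and 0.0945 CPM, all under the lowest member sum. On chip 190-2 the member sum rested on 1 of 4 cells, at 4779 CPM. How many of all tested genes separate the sums in this way was not counted.

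The chemokine receptor gene Ackr3, which scavenges Cxcl12 on the migration route, was at 20 CPM or more in 23 of 31 members and 7 of 35 Lhx6-negative neurons. Maf, a transcription factor of MGE interneurons, was found in 22 of 31 against 7 of 35. On chip 190-2 Maf was in 1 of 4 members and 3 of 11 Lhx6-negative neurons, and its summed log2 difference at E14.5, 1.43 ± 2.37 (SE, edgeR adjusted p = 1.0), was −0.10 without chip 162 and −0.75 without the chip block. The neuropeptide gene Npy was found in 18 of 31 against 3 of 35, with 3 of 8 against 2 of 5 on chip 160. The transcription factor gene Mef2c was in 17 of 31 against 5 of 35. Zeb2, which directs MGE interneurons away from a striatal fate, was broader, in 26 of 31 against 15 of 35. Sst, in contrast, was detected in 2 of 31 members and in 0 of 35 Lhx6-negative neurons.

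Thinning each cell to 200000 counts left these shares within 2 cells of the values above in members. Erbb4 was then in 22 of 31 members and 5 of 35 Lhx6-negative neurons, Nxph1 in 19 and 2, Gria4 in 19 and 2, Ackr3 in 24 and 8. Without chip 190-2, Erbb4 was in 21 of 27 members (77.8%) and 3 of 24 Lhx6-negative neurons, and Ackr3 in 23 of 27 and 6 of 24.

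Single cells combined these genes. Of Erbb4, Nxph1, Maf, Ackr3, Npy and Mef2c, which were chosen after their values were seen, 20 of 31 E14.5 members held 4 or more at 20 CPM, compared with 2 of 35 Lhx6-negative neurons. The median was 4 genes per member and 0 per Lhx6-negative neuron. At the other end, 4 of 31 members held 0 or 1 of the 6, 3 of them on chip 190-2, against 28 of 35 Lhx6-negative neurons. Npy and Nxph1 were found together in 11 of 31 members and in 0 of the 56 Lhx6-negative neurons of both ages. At E12.5 only 1 of 17 members held 4 or more of the 6.

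**Figure D2:**
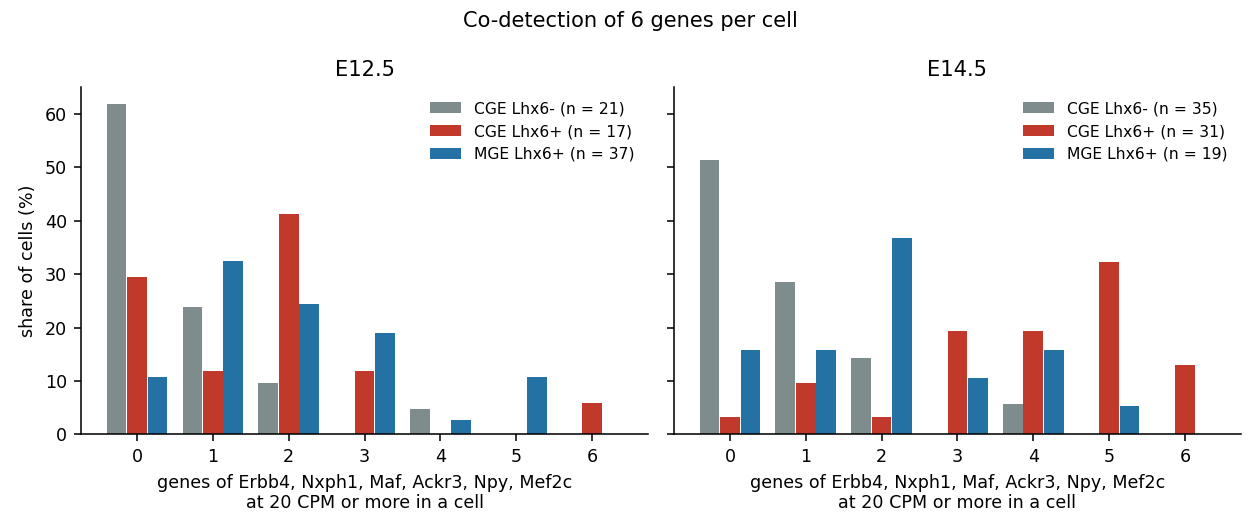
Bars give the share of cells (%) with 0 to 6 of the genes Erbb4, Nxph1, Maf, Ackr3, Npy and Mef2c at 20 CPM or more, for Lhx6-negative and Lhx6-positive CGE neurons and Lhx6-positive MGE neurons at each age. At E14.5, 20 of 31 CGE members lie at 4 or more and 28 of 35 Lhx6-negative neurons at 0 or 1.

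Other genes with the same contrast at E14.5 were named after their values were seen. Epha5, an ephrin receptor of axon and cell guidance, stood in 30 of 31 members against 19 of 35 Lhx6-negative neurons. Ptprd, a receptor phosphatase of synapse formation, was in 18 of 31 against 2 of 35, and the zinc finger gene Zfp536 in 17 of 31 against 4 of 35. The guidance receptors Robo1 and Robo2 were found in 12 and 11 of 31 members and in 3 of 35 Lhx6-negative neurons each. Cxcr4, the signalling receptor for Cxcl12, was in 10 of 31 against 4 of 35, with 1 of 8 against 1 of 5 on chip 160. At E12.5 it was in 0 of 4 members against 1 of 6 Lhx6-negative neurons on chip 175, and in 0 of 13 against 3 of 15 on chip 182. Its edgeR log2 difference over both ages was −3.31 ± 1.69 (SE).

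Meis2, Six3, Isl1 and Flrt2 were in a smaller share of members at E14.5. Meis2 stood in 14 of 31 members (45.2%) and 26 of 35 Lhx6-negative neurons (74.3%) at E14.5, and in 7 of 17 against 17 of 21 at E12.5. On chips 160, 161 and 162 every Lhx6-negative neuron but 1 held it, 23 of 24, against 13 of 27 members, while chip 190-2 had 1 of 4 members and 3 of 11 Lhx6-negative neurons. The summed levels of Meis2 did not follow its shares at E12.5, with an edgeR log2 difference of 0.26 ± 1.02 (SE). Over both ages that difference was −0.59 ± 0.61 and became 0.052 without chip 182. Six3 was found in 6 of 31 members and 13 of 35 Lhx6-negative neurons, and Isl1 in 3 of 31 and 7 of 35. The adhesion gene Flrt2, named after its values were seen, was in 3 of 31 and 15 of 35. Of the genes of maturing striatal neurons, Drd1 and Ikzf1 were at 20 CPM or more in no cell of either group, Drd2 in 0 of 31 members and 3 of 35 Lhx6-negative neurons and Ppp1r1b in 0 and 1.

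**Figure D3:**
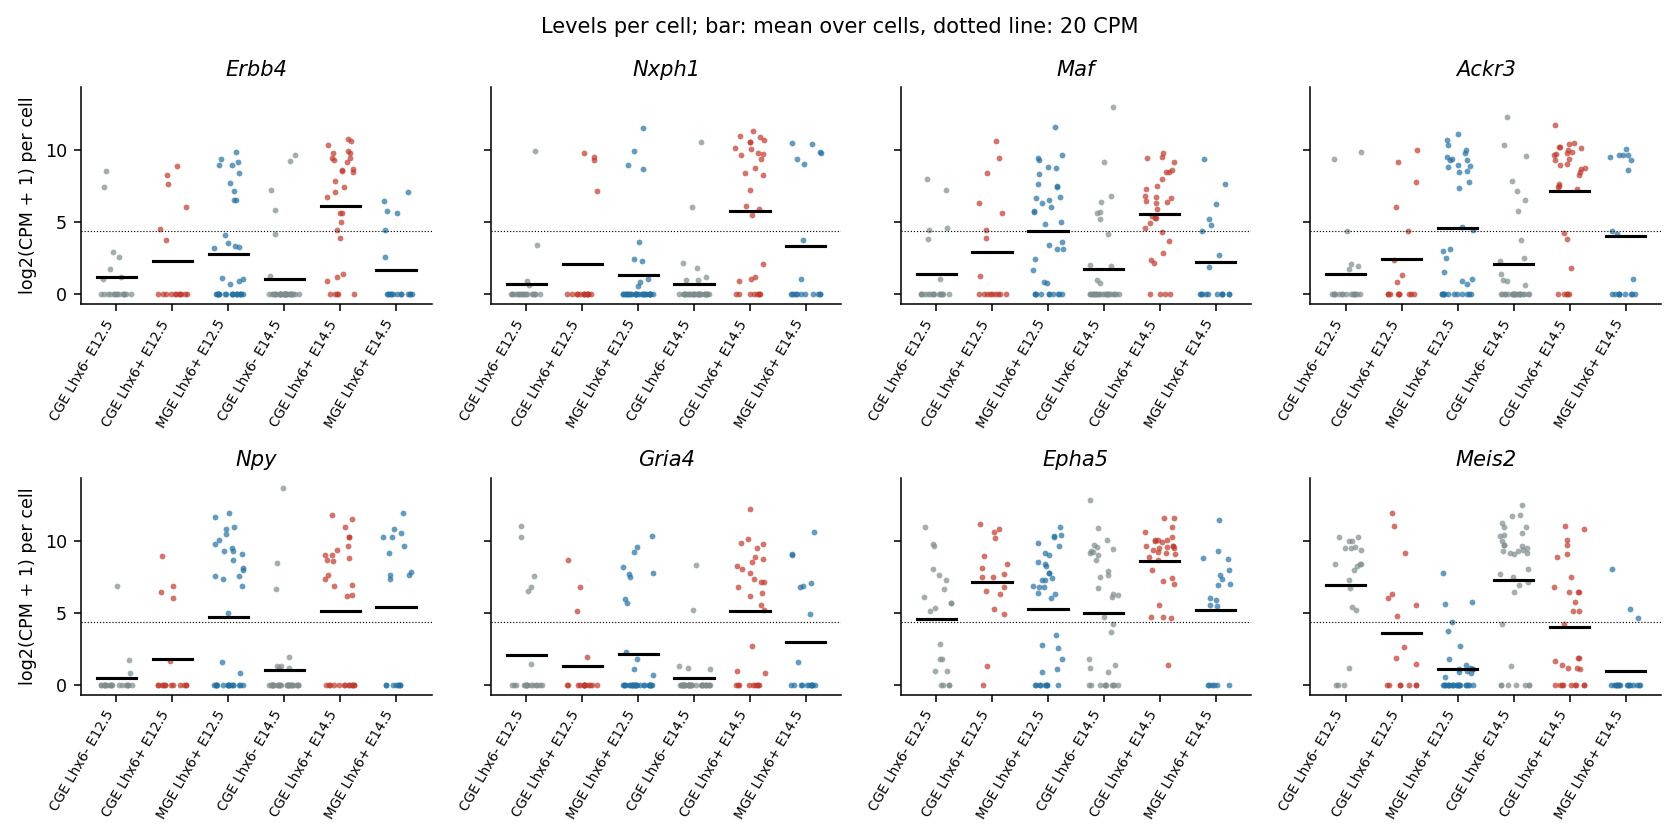
Each point is 1 cell at log2(CPM + 1), for 8 genes in Lhx6-negative CGE, Lhx6-positive CGE and Lhx6-positive MGE neurons at E12.5 and E14.5; bars are means over cells and the dotted line marks 20 CPM. At E14.5, 22 of 31 Lhx6-positive CGE neurons lie above the line for Erbb4 against 4 of 35 Lhx6-negative ones, and Meis2 shows the opposite order.

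The tests over chips called few of these differences. edgeR's quasi-likelihood test on summed counts, with the chip as a block, called 0 of 7418 genes (0%) at a Benjamini-Hochberg adjusted p under 0.05 for Lhx6-positive against Lhx6-negative neurons over both ages. It called 0 within E12.5, 0 within E14.5 and 0 for the change of the difference with age. An unadjusted p under 0.05 was reached by 80, 47, 81 and 73 genes, and DESeq2 called 110, 38, 298 and 119. Among named genes at 20 CPM or more, the smallest p-values over both ages belonged to Neb, which codes for a giant actin-binding protein, the neuronal RNA-binding gene Elavl4, Ndrg2, Alg14 and Atp9a. Neb stood in 7 of 17 members and 2 of 21 Lhx6-negative neurons at E12.5 and in 14 of 31 and 5 of 35 at E14.5 (log2 difference 4.82 ± 1.14 SE, edgeR adjusted p = 1). Within E14.5 they belonged to Clasp2, a microtubule-binding gene (3.11 ± 0.70), Cldn12, Fpgt, Cog4 and Epb41l4a, within E12.5 to Ndrg2, Pigs, Neb, Atp9a and Pafah1b2, and for the change with age to Ndrg2, Pafah1b2, Nap1l3, Ntrk2 and Gria4. Sums over 4 to 15 cells varied strongly. The spread that edgeR fitted beyond counting noise and chip differences was 151% as a median coefficient of variation. A single cell with a very high level could set a sum.

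A test that gives each cell equal weight was added after seeing the data: limma on the mean over cells of log2(CPM + 1), weighted by cells, with the same block. Within E14.5 it called 1 of 7418 genes (0.0135%), Gria4, with a difference of 4.58 ± 0.80 (SE) on the log2(CPM + 1) scale and an adjusted p of 0.0402. Erbb4 (4.70 ± 0.88, adjusted p = 0.0536), Nxph1 (4.65 ± 0.93, 0.0545), Epha5 (3.57 ± 0.71, 0.0545) and Ackr3 (4.77 ± 0.99, 0.0684) missed the threshold. Meis2 stood at −4.06 ± 0.91 (adjusted p = 0.104).

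Chip 190-2 decided several of these calls. Without it the same limma test called 10 genes within E14.5. Ackr3 (6.20, adjusted p = 0.00289), Erbb4 (5.58, 0.00735), Nxph1 (5.77, 0.00735), Gria4 (4.91, 0.0214), Maf (4.88, 0.0220), Ptprd (4.12, 0.0412), Npy (4.67, 0.0484) and Golm1 (4.46, 0.0484) were higher in the members. Meis2 (−4.97, 0.0131) and the kinase gene Mapk11 (−4.06, 0.0333) were lower. Without chip 182 it called Gria4 and Epha5, and without chip 175, 160, 161 or 162 it called 0 genes. Over both ages Meis2 was called without chip 190-2 (−4.12, adjusted p = 0.0143) and 0 genes otherwise.

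The direction on each chip was counted for all tested genes, by the mean log2(CPM + 1) over cells. On all 6 CGE chips 102 genes (1.38%) were higher in members and 113 (1.52%) lower. Among them, Dlx1, Dlx2 and Dlx5 of the 10 tested GABAergic genes, Npy of the 13 tested MGE lineage genes and Robo1, Robo2 and Epha5 of the 14 tested migration and guidance genes were higher. Isl1 and Six3 of the 12 tested striatal and LGE genes were lower.

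On the 4 E14.5 chips alone the background was 505 genes higher (6.81%) and 361 lower (4.87%). Of the 13 tested MGE lineage genes Npy, Erbb4, Mef2c and Zeb2 were higher on all 4, and the list's median difference was 2.66 against 0.15 over all genes. Of the 12 tested striatal and LGE genes Isl1, Meis1, Meis2, Six3 and Pbx3 were lower on all 4, with a list median of −0.47. At E12.5 the list median by the same mean over cells was −1.25 against −0.15 over all genes. On summed counts, a different measure, the E12.5 edgeR fit gave 5 of these 12 a positive and 7 a negative difference. The GABAergic genes Gad1, Dlx1, Dlx2 and Dlx5 were among those higher on all 4. Members of other lists stood to one side as well. Of the 17 tested pan-neuronal genes 6 were higher on all 4 chips, among them Elavl4, Stmn3 and Nrxn3, and 1 lower. Of the 14 tested migration and guidance genes 4 were higher on all 4, and of the 11 tested radial glia genes 3 were lower. The part of neuronal maturity in the shares above was not tested. No member of these lists was called by edgeR.

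CGE lineage genes were found in both kinds of CGE neuron. At E12.5 the orphan receptor gene Nr2f1 stood in 17 of 17 members and 19 of 21 Lhx6-negative neurons, Nr2f2 in 9 of 17 and 14 of 21, and Prox1 in 5 of 17 and 5 of 21. At E14.5 Nr2f1 was in 15 of 31 and 16 of 35, Nr2f2 in 7 of 31 and 12 of 35, and Sp8 in 4 of 31 and 6 of 35. Prox1 was in 0 of 31 members at E14.5, which allows up to 9.68%, and in 4 of 35 Lhx6-negative neurons. Vip, Reln and Cck were at 20 CPM or more in 0 of the 51 members and Htr3a and Calb2 in 1 each.

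Within the members, the MGE gene Nkx2-1 and the CGE gene Nr2f2 did not divide the cells cleanly. Of all 51, 11 held Nkx2-1 without Nr2f2, 11 held Nr2f2 without Nkx2-1, 5 held both and 24 held neither. Meis2 and Erbb4 occurred together in 9 of 31 E14.5 members. Sox6, a transcription factor downstream of Lhx6, stood in 25 of 51 and Satb1 in 15.

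**Figure D4:**
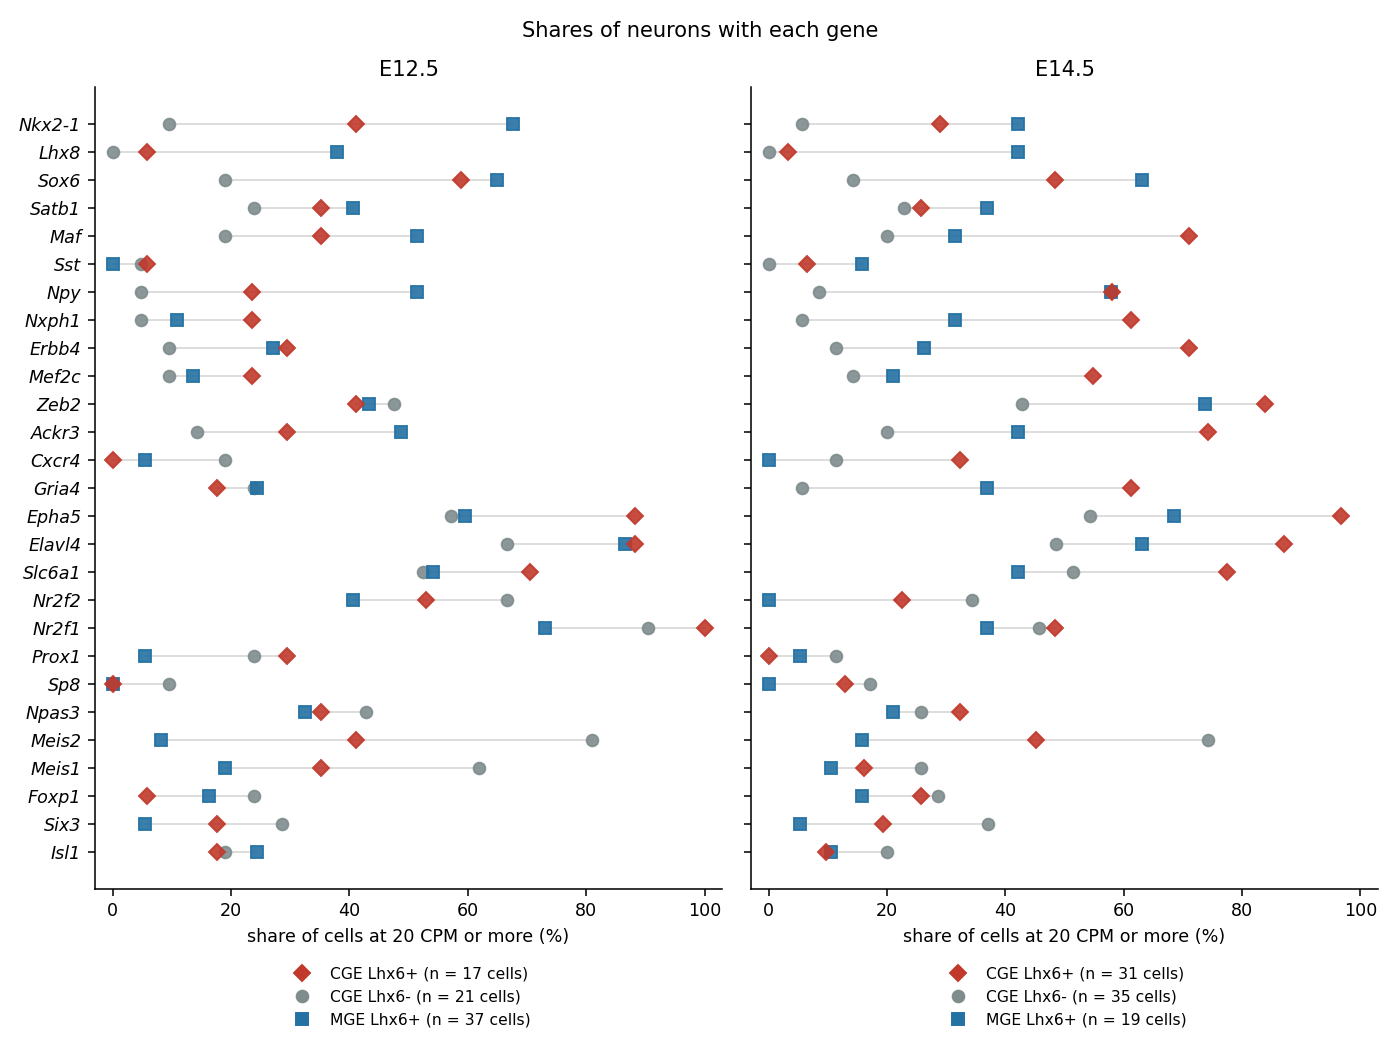
Points give the share of cells (%) with each gene at 20 CPM or more, in Lhx6-positive CGE neurons, Lhx6-negative CGE neurons and Lhx6-positive MGE neurons at E12.5 (left) and E14.5 (right). At E14.5 Erbb4, Nxph1, Maf, Ackr3 and Gria4 lie further right in the CGE members than in the other groups, while Lhx8 is at 5.9% or less in the members at both ages.

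Lhx6-positive neurons of the CGE were then set beside neurons chosen by the same rule from MGE chips numbered 160 and above, the range that holds the CGE chips compared. These were 37 cells on 5 chips at E12.5 and 19 cells on 2 chips at E14.5, of which vMGE chip 194 held 3. A chip holds 1 tissue, so chip and tissue cannot be told apart in a single chip, and the comparison rests on the spread between chips. At E14.5 the MGE side of the edgeR contrast gave equal weight to chips 193 and 194, sums of 16 and 3 cells. The median log2 difference of all genes between the tissues at that age was 2.83, and its cause was not tested. Single-gene folds at that age are therefore not used to compare the tissues.

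Lhx8 was lower in the summed levels of the CGE, though edgeR and the weighted limma test, given below, did not call it. It was 0, 7.52, 0, 0, 12.3 and 0.273 CPM in the CGE sums of chips 175, 182, 160, 161, 162 and 190-2. At 20 CPM or more it was in 2 of the 51 members (exact 95% interval 0.5 to 13.5%, which leaves out the spread between chips). The MGE sums held 65.6 to 437 CPM, with 14 of 37 cells at E12.5 and 8 of 19 at E14.5. Every CGE chip lay under every MGE chip.

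Nkx2-1 showed the same order in its summed levels, at a shorter distance. Its CGE levels were 1.53, 58.6, 14.9, 18.8, 26.1 and 0 CPM in the same chip order, against 70.2 to 199 CPM in the MGE sums. It stood in 16 of the 51 members, 25 of 37 MGE cells at E12.5 and 8 of 19 at E14.5. By chip these shares overlapped, from 0 to 53.8% of cells in the CGE and from 31.25 to 100% in the MGE. Meis2 was the reverse, at 1291 CPM on chip 175 and between 188 and 559.6 CPM on the other CGE chips, against 0 to 36.5 CPM in the MGE sums. Its shares of cells were closer, from 25 to 75% by CGE chip and from 0 to 18.75% by MGE chip. On chips 161 and 190-2 the sum rested on 1 of 4 members, at 540 and 1828 CPM. MGE chip 193 had 3 of 16 cells with it, so a single cell could change the order of these shares.

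Of 12594 tested genes, 11 (0.0873%) had every CGE chip under every MGE chip, and 4 (0.0318%) every CGE chip above. How many genes would be ordered so by chance was not tested. Beside Lhx8 and Nkx2-1 the 11 held Bcl11a, a transcription factor of developing neurons, Hmgb1, Serbp1, Anp32a, Sem1, Thyn1, Mak16, Washc3 and Dirc2. The 4 were Meis2, the transcription factor Nfix, Brk1 and Dmtf1. Nfix ran from 6.11 to 327 CPM in the CGE sums and from 0 to 1.49 CPM in the MGE sums. The genes of these lists that the text names beside Lhx8, Nkx2-1 and Meis2 were named after their values were seen.

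**Figure D5:**
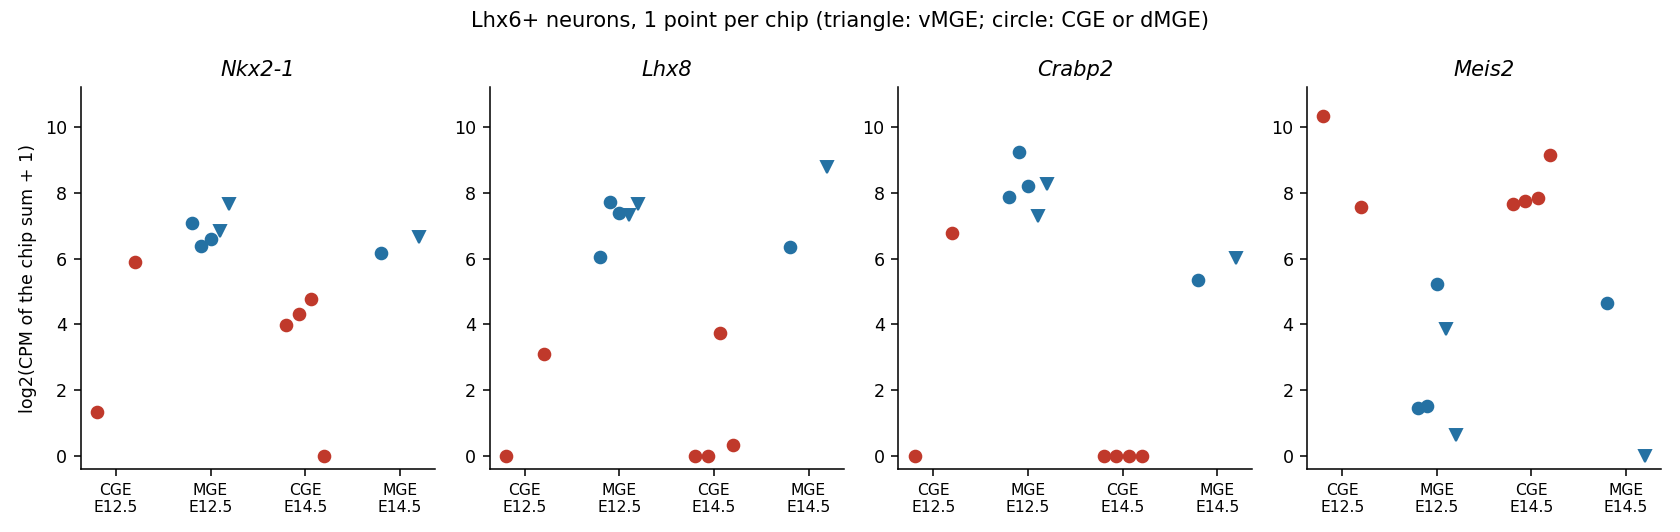
Each point is the summed level of Lhx6-positive neurons on 1 chip as log2(CPM + 1), for Nkx2-1, Lhx8, Crabp2 and Meis2 in CGE and MGE at each age. All 6 CGE chips lie under all 7 MGE chips for Nkx2-1 and Lhx8 and above them for Meis2.

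edgeR called 6 of 12594 genes (0.0476%) for CGE against MGE at E12.5 and 0 (0%) at E14.5, where 709 genes had an unadjusted p under 0.05, DESeq2 called 1649 and weighted limma 56. Among such genes Crabp2, Fbxo7, Zcchc18, Smarca1 and Zfp68 had the smallest p-values at E14.5, each with an adjusted p of 0.162. The edgeR p-values at that age come from the contrast with a median difference of 2.83 and were not adjusted for that shift. The edgeR log2 difference of Zfp68 at E14.5, 7.74, was 0.11 without chip 194 and 15.4 without chip 193. The 6 called at E12.5 were Prss41, Zfp51, Tasp1, Pggt1b, Zfp958 and mt-Cytb, all higher in CGE. None of them is a lineage gene of the lists, and most rested on few cells: Prss41 and Tasp1 were at 20 CPM or more in 1 of 17 CGE members each, both on chip 175, and Zfp51 in 2. mt-Cytb, a mitochondrial gene, was 21086 CPM on chip 175 and 7051 CPM on chip 182, beside that chip's 5.69% of mitochondrial reads. Without chip 175 the count was 2, without chip 182 it was 12 and without chip 190-2 it was 1. Without chip 173, 184, 174 or 185 of the MGE it was 10, 11, 3 or 2.

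Lhx8 was not among these calls (edgeR log2 difference −5.40 ± 2.91 SE at E12.5, adjusted p = 0.769), and neither was Meis2 (6.41 ± 1.61, adjusted p = 0.0896). The weighted limma test gave Lhx8 an adjusted p of 0.394 at E12.5 and 0.0557 at E14.5.

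At E14.5 the order between CGE members and MGE Lhx6-positive neurons differed from gene to gene, and these shares were not tested. Erbb4 was in 22 of 31 CGE members and 5 of 19 MGE cells, Nxph1 in 19 and 6, Maf in 22 and 6, and Ackr3 in 23 and 8. Npy was in 18 of 31 and 11 of 19. Sox6 (15 of 31 against 12 of 19), Satb1 (8 against 7) and Sst (2 against 3) were in a smaller share of the CGE members. Cxcr4 was in 10 of 31 and 0 of 19. The MGE cells had a median of 412078 counts and 2646 genes per cell against 826484 counts and 3668 genes in the CGE members, and the part of depth in these shares was not tested. After thinning, Erbb4 was in 22 of 31 and 5 of 18, Nxph1 in 19 and 5, and Ackr3 in 24 and 7. On CGE chip 190-2 Nxph1 and Ackr3 were in 0 of 4 members. At E12.5 Npy was in 25 and 23.1% of members on chips 175 and 182, and in 33.3 to 66.7% of cells by MGE chip. In the same order Maf was at 25, 38.5 and 14.3 to 66.7%, and Ackr3 at 0, 38.5 and 16.7 to 83.3%. Erbb4 was at 0, 38.5 and 0 to 50%, and Nxph1 at 0, 30.8 and 0 to 16.7%.

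Shares of Lhx6-positive CGE neurons with genes of early neurons and of migration were set side by side for the ages. Insm1 stood in 8 of 17 members at E12.5 and 2 of 31 at E14.5, and Nr2f1 in 17 of 17 and 15 of 31. Nr2f1 levels were 1484 and 509 CPM on the E12.5 chips and 136, 30.8, 39.2 and 656 CPM on the E14.5 chips, so the ages overlapped through chip 190-2. In the other direction Erbb4 went from 5 of 17 to 22 of 31, Nxph1 from 4 to 19, Ackr3 from 5 to 23, Npy from 4 to 18 and Gria4 from 3 to 19. These counts pool chips. Erbb4, Nxph1, Ackr3 and Gria4 were each in 0 of 4 members on E12.5 chip 175. On E14.5 chip 190-2 Erbb4 was in 1 of 4 members and Nxph1 and Ackr3 in 0 of 4. On E12.5 chip 182 they were in 5, 4 and 5 of 13, so by chip the ages overlapped. Gria4 was in 3 of 13 on chip 182 and 1 of 4 on chip 190-2, and Npy in 1 of 4 on chips 175 and 190-2 alike. Cxcr4 was in 0 of 17 members at E12.5, which allows up to 17.6%, and in 10 of 31 at E14.5.

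In Lhx6-negative neurons of the same chips Erbb4 was in 2 of 21 cells at E12.5 and 4 of 35 at E14.5, and Gria4 in 5 of 21 and 2 of 35. For Gria4 the change of the difference between the groups with age was 5.37 on the log2(CPM + 1) scale by the weighted limma test (unadjusted p = 0.000342 over chips, adjusted p = 0.58). No gene passed the threshold for that change with edgeR or with this test.

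For age within the members edgeR called 7 of 12594 genes (0.0556%), 1 higher at E14.5 and 6 lower. The higher gene was Cnr1, a cannabinoid receptor, which rested on 1 member of chip 190-2 at 2077 CPM of the sum. Pggt1b, Prss41, Nalcn, Crabp2, Zfp2 and mt-Rnr2 were lower. Crabp2, a retinoic acid binding protein gene, was at 107 CPM on chip 182 and at 0 on the other 5 CGE chips, and at 39.3 to 599.9 CPM in the MGE sums. Without chip 175 the count was 1, without chip 160 or 162 it was 3 each, and without chip 190-2 it was 0. Erbb4 (3.18 ± 2.19, adjusted p = 0.905) and Npy (4.21 ± 1.45, 0.800) were not called.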

How the data were processed

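Raw read counts per gene and cell were deposited by the authors, who used STAR 2.4.0, HTSeq 0.6.1, CASAVA, FastQC and SAMtools with build mm9, per the submitters' processing notes. The reads carry no molecular identifiers, and the kit does not mark strand, so overlapping genes cannot be told apart. The intervals are binomial, on numbers of cells taken as independent, and cover counting error only. Names were matched by identifier for 32620 of 37310 genes. The chip was read from the sample titles; no 2 cells had identical counts. The deposited RPKM table was not used here.

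CPM were computed per cell, or from counts summed over a chip's cells. Sums of at least 3 cells held 2116186 to 16423436 counts and were fitted with edgeR 4.0.16 in R 4.3.3 (TMM, filterByExpr, Benjamini-Hochberg), with the chip as a block inside the CGE, since both groups come from the same chips. The fits were tested on simulated data, in which few changed genes were called at the spread of these sums. Alternatives used DESeq2 1.42.0, limma 3.58.1, other filters and left-out chips. The 5 genes of the rule were left out of counts. Members, lists and tests were chosen with earlier results of these data known. Named genes are those called at 20 CPM or more (at most 10 each way), the 5 with the smallest p where none was called, and lineage genes; others are marked as named after their values were seen. Some genes of the lists are not reported here.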

Additional observations from a re-analysis of the deposited data

Results flagged for a closer look

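In 7 of 41 groups of 4 chips tested, 1 chip lay further from the rest than Dixon's 95% critical value allows; chance flags about 1 group in 20. In the Lhx6-positive E14.5 neurons, chip 190-2 was low for Nxph1 (0.273 CPM), Ackr3 (0.546 CPM) and Nkx2-1 (0 CPM) and high for Meis2 (559.6 CPM), and chip 162 was high for Lhx8 (12.3 CPM). In the Lhx6-negative E14.5 neurons, chip 160 was high for Lhx8 (0.171 CPM) and chip 190-2 for Sst (1.80 CPM). Chip 190-2 has 4 members with a median of 1606 genes; its part in these values was not tested.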

How the results depend on the processing

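Limits: the sums hold few cells, and E14.5 MGE neurons came from 2 chips. Between Lhx6-positive and Lhx6-negative CGE neurons, calls were 0 with and without the replicate block and under the settings tried, other than DESeq2, which called 110 over both ages, 119 for the change with age, 38 at E12.5 and 298 at E14.5, and the weighted limma test (added after seeing the data), which called 1 at E14.5. Leaving out each chip kept these at 0 with edgeR.

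For CGE against MGE at E12.5 (6 calls), DESeq2 gave 296, its size factors 16, limma 3, weighted limma 0, at least 5 cells per sum 3 and a stricter cell filter 1, with 1 to 12 when a chip was left out. At E14.5 (0 calls; edgeR), DESeq2 gave 1649, its size factors 2, limma 186, weighted limma 56, all E14.5 MGE chips 3 and the stricter filter 5, with 0 to 4 when a chip was left out. For age (7 calls), these gave 250, 14, 3, 0, 0 (5 cells per sum) and 0 (stricter filter), thinning gave 3, and leaving out a chip 0 to 10. The share difference ran from 13.2 to 17.6 points under other settings, from 3.79 to 25.5 when a chip was left out, and was 21.9 over all CGE chips with a neuron (added after seeing the data; exact permutation p = 0.0844).

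Directions turned for Meis2 over both ages without chip 182 (0.052, range over left-out chips -1.19 to 0.052), Ndrg2 with age in weighted limma (0.20), Tasp1 with at least 5 cells (-5.16) and without chip 175 (-5.00; range -5.00 to 13.4), Zfp958 without chip 182 (-5.97; to 14.2), Zfp68 for CGE against MGE at E14.5 (7.74 as reported by edgeR) with at least 5 cells (-0.14), mt-Rnr2 without chip 175 (0.37; from -2.76), and Maf at E14.5 with no replicate block (-0.75) and without chip 162 (-0.10; to 2.85), all log2. The cause was not tested. Crabp2 with age ran from -12.8 to 0.00, the latter without chip 182, the CGE chip that held all its counts.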
